A study of Mus musculus with 9 samples.

Results

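The core circadian clock loop was measured as 8 genes, Arntl (also called Bmal1), Clock, Npas2, Per1, Per2, Per3, Cry1 and Cry2, in whole hearts. All mice were untreated males under the strain label C57BL/6, 3 to 4 months of age, fed an NIH31 diet. The members were all non-control probes whose accession maps to one of these symbols, which gave 13 of 41174 probes and 8 of 31758 gene entries on the array. Of these entries 19096 were named symbols, and the rest were accessions without a symbol. Arntl, Npas2, Per1 and Per3 had 1 probe each, Per2, Cry1 and Cry2 had 2 and Clock had 3. The 9 hearts came from 4 mice carrying staggerer on both alleles (RORasg/sg), a germline deletion within the Rora gene that removes the function of the nuclear receptor RORalpha in the whole body, and from 5 wild-type (WT) mice. There was 1 one-colour Agilent array for each heart, and the comparison addressed the heart transcripts that differ when RORalpha is lost. The time of day at which the hearts were taken is not given in the sources used here.

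In the clock loop, the proteins of Arntl and of Clock, or of the Clock paralogue Npas2, pair and activate genes that carry an E-box. Among these genes are the Per and Cry genes, whose proteins return to the nucleus and inhibit the pair that activated them, so that the transcripts rise and fall each day. RORalpha activates and REV-ERBalpha represses Arntl through ROR elements in its promoter, which links the mutated receptor to the activating arm. The heart keeps its own clock, and in it the activator Arntl and the repressors of the Per family peak at opposite times of day.

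The promoters of 4 members are shown because they carry the elements through which the loop is known to act. They are RefSeq windows of build GRCm38.p6, 250 bases before to 50 after a gene's start, read 5′ to 3′ on the gene's strand, with motif matches in capitals. The Arntl window is chr7:113207261-113207560 (plus strand), and its capitals mark AGGTCA, the half-site of the ROR element. The Per1 window is chr11:69098699-69098998 (plus strand), with 1 E-box (CACGTG), 1 AGGTCA half-site on the other strand and 1 D-box (TTATGCAA). The Per3 window is chr4:151044616-151044915 (minus strand), with 2 D-boxes (TTATGTAA), the element of the DBP family. The Cry1 window is chr10:85185005-85185304 (minus strand), with 1 E-box and, upstream of it, 1 match to the E-box variant CACGTT on the other strand.
Arntl: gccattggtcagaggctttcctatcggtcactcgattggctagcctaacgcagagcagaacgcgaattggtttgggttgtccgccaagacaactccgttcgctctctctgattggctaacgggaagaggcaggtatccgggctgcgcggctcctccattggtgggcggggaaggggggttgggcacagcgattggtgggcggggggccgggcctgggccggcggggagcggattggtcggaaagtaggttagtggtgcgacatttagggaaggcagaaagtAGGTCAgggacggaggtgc
Per1: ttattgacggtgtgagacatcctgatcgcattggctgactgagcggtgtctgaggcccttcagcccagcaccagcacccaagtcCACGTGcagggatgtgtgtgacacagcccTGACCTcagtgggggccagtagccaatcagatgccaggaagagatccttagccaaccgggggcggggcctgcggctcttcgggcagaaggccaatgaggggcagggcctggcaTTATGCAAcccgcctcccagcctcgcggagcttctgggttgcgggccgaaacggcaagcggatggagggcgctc
Per3: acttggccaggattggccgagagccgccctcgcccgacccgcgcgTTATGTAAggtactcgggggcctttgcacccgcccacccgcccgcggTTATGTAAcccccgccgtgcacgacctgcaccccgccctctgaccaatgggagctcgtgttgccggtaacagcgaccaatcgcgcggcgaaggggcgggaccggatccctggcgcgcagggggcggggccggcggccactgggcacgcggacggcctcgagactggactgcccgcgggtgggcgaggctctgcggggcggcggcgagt
Cry1: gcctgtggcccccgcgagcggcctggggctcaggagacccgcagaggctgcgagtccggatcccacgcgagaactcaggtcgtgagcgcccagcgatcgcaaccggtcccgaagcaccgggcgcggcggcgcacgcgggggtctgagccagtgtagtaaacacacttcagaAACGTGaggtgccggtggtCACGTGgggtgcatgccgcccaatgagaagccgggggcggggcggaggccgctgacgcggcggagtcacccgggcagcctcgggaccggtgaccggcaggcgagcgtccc
Both strands were searched, and no 2 matches overlapped in these windows. Of 32851 such windows in the table, 16.3% held AGGTCA, 7.15% held CACGTG, 4.68% held CACGTT and 1.66% held a D-box (TTATGTAA or TTATGCAA). The table held 11 windows for 7 of the members, all but Per2. The half-site was found in 3 of the 11 windows (Arntl, Clock and Per1) and CACGTG in 2 (Per1 and Cry1). CACGTT was found in 2 (Cry1 and Cry2) and a D-box in 2 (Per1 and Per3). Arntl, Clock and Per1 also had windows without any match. A match describes the letters of the window and nothing about binding.

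Libraries stood apart before any gene was compared. The brightness of an array, taken as the 75th percentile of its signal, was 760, 280, 382 and 259 in RORasg/sg hearts 1 to 4, and 669, 630, 619, 423 and 535 in WT hearts 1 to 5. RORasg/sg 2, 3 and 4 and WT 4, each under 500, are called the 4 dimmer arrays, and the others the 5 brighter arrays, a division made after earlier results of these data were known. Over 6335 genes with 2 or more usable probes, the median gap between a gene's highest and lowest probe, each taken against the other brighter WT arrays, was 1.71, 1.83 and 2.06 log2 units in RORasg/sg 2, 3 and 4. The gap was 0.64 in RORasg/sg 1, 1.37 in WT 4 and between 0.38 and 0.43 in the other WT hearts. In the dimmer arrays the probes of a gene thus disagreed far more than in the brighter ones, in WT 4 as in the mutants. All 6 cardiomyocyte markers were well above background on every array, and their summed signal in units of the array's 75th percentile was 201 to 646 in RORasg/sg and 549 to 659 in WT hearts. The 3 T and B cell markers summed to 0.73 to 10.4 in RORasg/sg and 0.89 to 1.83 in WT hearts, and the 3 skeletal muscle markers to 1.15 to 5.04 in RORasg/sg and 0.76 to 1.80 in WT hearts. The part of these differences in the values below was not tested, and in whole heart RNA fewer cells of a type and less RNA per cell cannot be told apart.

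Rora, the mutated gene, read 0.11, -2.65, -0.98 and -1.96 in RORasg/sg hearts 1 to 4, against 2.90, 3.32, 2.91, 1.55 and 3.09 in WT hearts 1 to 5, as log2 relative to the 75th percentile of the array. These values are from the brightest of 3 usable Rora probes, and the other Rora probes are not reported here. On this probe every RORasg/sg heart lay below every WT heart, which held for 1.83% of all probes. Its log2 difference was -4.13 (SE 0.610, limma adjusted p = 0.294). Where this probe lies against the deleted part is not known here, so it is no full check of the labels.

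None of the 13 clock loop probes passed the threshold in the comparison of RORasg/sg with WT hearts. The threshold was an adjusted p under 0.05 in limma, with Benjamini-Hochberg adjustment over 36402 probes, and the members' adjusted p ran from 0.361 to 0.928. Over all probes the share that passed was 0.00275%, a single probe. At an unadjusted limma p under 0.05 stood 2 member probes, against 12.8% of all probes, and 7 of 13 differed by 1 log2 unit or more, against 30.4% of all probes. The sign was positive for 6 probes and negative for 7, where 61.9% of all probes were positive. In 0 of 13 probes did the RORasg/sg hearts lie all above the WT hearts (1.23% of all probes) or all below them (1.83%). Taking the brightest probe of each gene, 4 genes were positive and 4 negative, with a median log2 difference of 0.14, where the median of all probes was 0.32. That shift of all probes depended on the scaling. It was 0.25 with scaling to the median (members 0.074), 0.20 after quantile normalization (members -0.0045), 0.12 after normexp followed by quantile normalization (members 0.077) and -0.26 with no scaling (members -0.44).

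**Figure D1:**
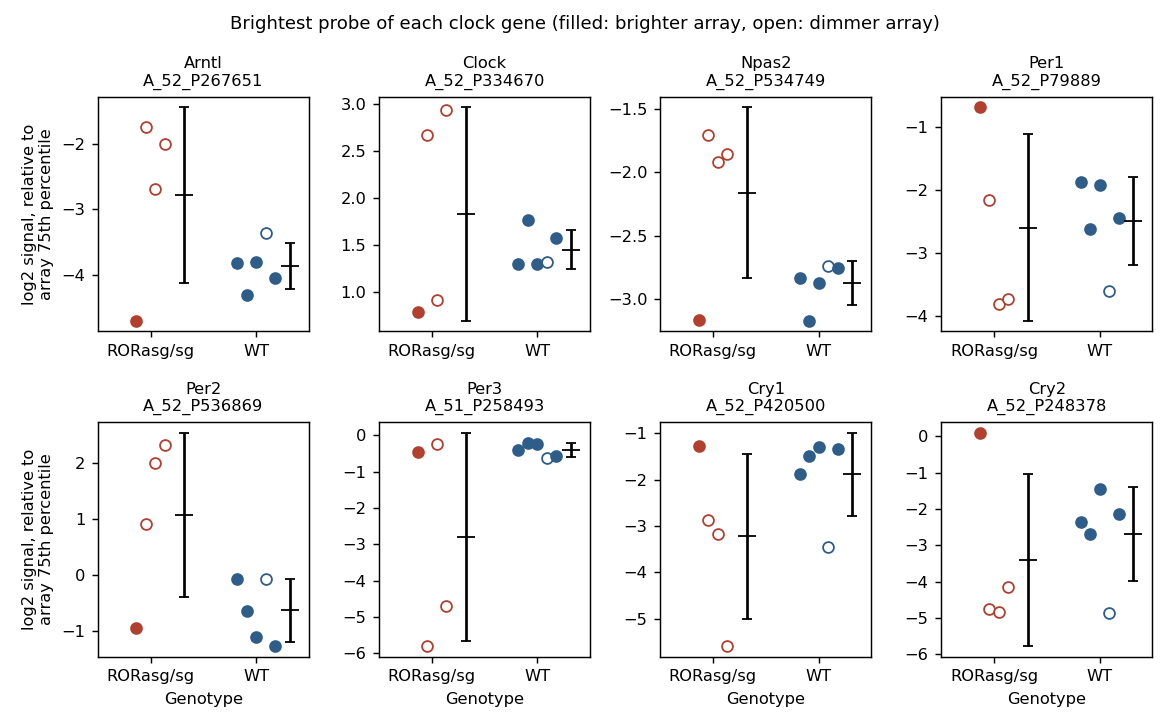
Signal of the brightest probe of each clock gene in 4 RORasg/sg and 5 WT hearts, as log2 relative to the array's 75th percentile, with 1 point a heart and bars for the mean ± SD. Filled points are the brighter and open points the dimmer arrays, and in Arntl, Npas2 and Per2 the filled RORasg/sg point lies among or below the WT points while the 3 open ones lie above all of them.

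Arntl, the partner that all activating pairs of the loop share, read high in 3 of the 4 mutant hearts. Its probe A_52_P267651 read -4.69, -1.74, -2.68 and -2.01 in RORasg/sg hearts 1 to 4, against -3.82, -4.30, -3.80, -3.35 and -4.04 in WT hearts 1 to 5. RORasg/sg 2, 3 and 4 lay above every WT heart and RORasg/sg 1 lay below every WT heart. The means were -2.78 ± 1.33 in RORasg/sg and -3.86 ± 0.351 in WT hearts (SD, n = 4 and n = 5), a log2 difference of 1.08 (SE 0.590, 95% interval -0.21 to 2.37), or 2.11-fold. It did not pass the threshold (limma adjusted p = 0.3998), and an exact two-sided permutation test over the 126 splits of the hearts gave p = 0.127, where the smallest possible is 0.0159. This test was run on the brightest probe of each of the 8 genes. The probe was dim on every array, at 29.4 to 83.6 units of deposited signal in RORasg/sg hearts and 32.0 to 47.4 in WT hearts. The log2 difference of Arntl was 0.84 within slide 1 and 1.23 within slide 2. It was 0.50 without scaling between arrays (limma adjusted p = 0.563) and 0.58 with normexp (limma adjusted p = 0.321).

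Clock, whose protein is the DNA-binding partner of ARNTL, gave different answers on its 3 probes. The bright probe A_52_P334670 read 0.78, 2.67, 0.92 and 2.94 in RORasg/sg hearts 1 to 4, against 1.30, 1.76, 1.30, 1.32 and 1.57 in WT hearts 1 to 5. RORasg/sg 2 and 4 lay above every WT heart, and RORasg/sg 1 and 3 below every WT heart. The log2 difference was 0.38 (SE 0.528, limma adjusted p = 0.664), and without scaling between arrays it turned to -0.20. The exact permutation p was 0.429. Probe A_52_P161365 read -1.30, -4.17, -4.95 and -0.094 in RORasg/sg hearts 1 to 4, against -0.89, -0.72, -0.98, -3.01 and -1.08 in WT hearts 1 to 5, a log2 difference of -1.29 (SE 0.936, limma adjusted p = 0.445). Its low values were those of RORasg/sg 2 and 3 and of WT 4. Probe A_52_P334677 differed by -1.45 (SE 0.913, limma adjusted p = 0.415), with RORasg/sg 3 at -7.42, where it was not well above background, and the other 8 hearts between -3.29 and -1.90. Without RORasg/sg 3 it differed by -0.25, and A_52_P161365 by -0.52. The bright probe differed by 0.20 within slide 1 and 0.62 within slide 2.

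Npas2, the paralogue that can stand in for Clock, read alike in deposited signal on every array. The Npas2 signal came to 84.6, 85.8, 101 and 71.7 units in RORasg/sg hearts 1 to 4, against 93.7, 69.7, 84.3, 63.5 and 79.2 in WT hearts 1 to 5. The groups overlapped on that scale, and the log2 difference without scaling was 0.14 (limma adjusted p = 0.856). After scaling to the 75th percentile, probe A_52_P534749 read -3.17, -1.71, -1.92 and -1.85 in RORasg/sg hearts 1 to 4, against -2.84, -3.18, -2.88, -2.74 and -2.76 in WT hearts 1 to 5. On the scaled values RORasg/sg 2, 3 and 4 lay above every WT heart and RORasg/sg 1 within the WT range. The scaled log2 difference was 0.72 (SE 0.423, 95% interval -0.21 to 1.64, limma adjusted p = 0.407), with an exact permutation p of 0.0794. Within slides 1 and 2 it was 0.57 and 0.92.

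Among the repressors, Per1, a Per gene that light induces in the central clock of the brain, split the mutant hearts. Probe A_52_P79889 read -0.69, -2.17, -3.81 and -3.74 in RORasg/sg hearts 1 to 4, against -1.87, -2.62, -1.93, -3.61 and -2.45 in WT hearts 1 to 5. RORasg/sg 1 was the highest of all 9 hearts, at 2.88 times the mean of the 4 brighter WT hearts, while RORasg/sg 3 and 4 were the lowest and WT 4 the next. The log2 difference over all hearts was -0.11 (SE 0.671, 95% interval -1.57 to 1.36, limma adjusted p = 0.928), with an exact permutation p of 0.873. Within slide 1 it was 0.81 and within slide 2 it was -1.004.

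Per2, a repressor whose protein acts together with CRY, gave the largest positive and the second largest negative difference among the 13 probes. Probe A_52_P536869 read -0.95, 0.91, 1.997 and 2.31 in RORasg/sg hearts 1 to 4, against -0.076, -0.65, -1.12, -0.078 and -1.28 in WT hearts 1 to 5. RORasg/sg 2, 3 and 4 lay above every WT heart and RORasg/sg 1 within the WT range. Means were 1.07 ± 1.47 in RORasg/sg and -0.64 ± 0.563 in WT hearts (SD, n = 4 and n = 5), a log2 difference of 1.70 (SE 0.660, 95% interval 0.26 to 3.15), or 3.26-fold. The unadjusted limma p was 0.0243, the adjusted p 0.361 and the exact permutation p 0.0635. It was 0.34 within slide 1 and 2.75 within slide 2.

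The other Per2 probe, A_51_P282760, ran the other way in the same hearts. It read 0.53, -2.45, -0.70 and -4.33 in RORasg/sg hearts 1 to 4, against 0.73, 0.97, 0.74, -1.70 and 0.48 in WT hearts 1 to 5. RORasg/sg 2 and 4 lay below every WT heart, RORasg/sg 3 between WT 4 and the other WT hearts, and RORasg/sg 1 among the WT hearts. The log2 difference was -1.98 (SE 0.915, 95% interval -3.98 to 0.015, limma adjusted p = 0.391), or 3.95-fold lower, and without RORasg/sg 4 it was -1.12. Against the mean of the other brighter WT hearts the 2 Per2 probes stood 4.87, 4.21 and 8.14 log2 units apart in RORasg/sg 2, 3 and 4 and 3.13 apart in WT 4. They stood 0.033 apart in RORasg/sg 1, and between 0.14 and 0.93 apart in WT 1, 2, 3 and 5. Both probes carry the same Per2 accession in the files, so no single direction can be given for Per2.

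**Figure D2:**
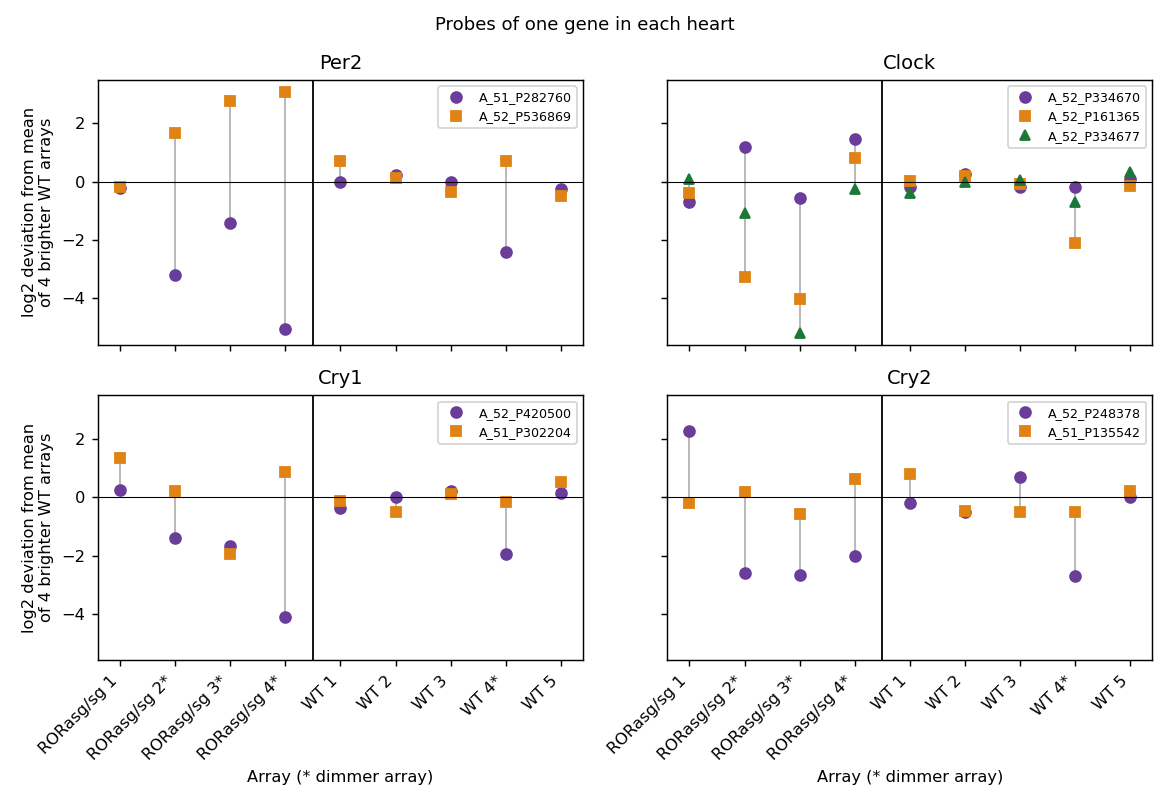
Deviation of each probe of Per2, Clock, Cry1 and Cry2 from its mean over the 4 brighter WT hearts (log2), by heart, with a grey line joining probes of the gene. For Per2 the 2 probes lie close together in RORasg/sg 1 and WT 1, 2, 3 and 5 and part in RORasg/sg 2, 3 and 4 and WT 4, marked * as dimmer arrays.

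Per3, a Per family member that oscillates with the clock without being needed for it, was low in 2 of the 4 mutant hearts. Probe A_51_P258493 had a deposited signal of 553, 5.02, 326 and 10.03 in RORasg/sg hearts 1 to 4, against 510, 542, 522, 277 and 359 in WT hearts 1 to 5. On that scale RORasg/sg 1 lay just above the highest WT heart, RORasg/sg 3 among the WT hearts, and RORasg/sg 2 and 4 far below them, with RORasg/sg 2 not well above background. The scaled values were -0.46, -5.80, -0.23 and -4.69 in RORasg/sg hearts 1 to 4, against -0.41 ± 0.182 in WT hearts (SD, n = 5), with RORasg/sg 1 and 3 within the WT range. The SD of Per3 in RORasg/sg hearts was 15.8 times that in WT hearts. The log2 difference of -2.39 (SE 1.04, 95% interval -4.66 to -0.12) had an unadjusted limma p of 0.0410 and an adjusted p of 0.387, and the exact permutation p was 0.222. The limma fit takes 1 variance for both groups, far from these SDs, so its interval and p for Per3 are not reliable. Within slides 1 and 2 the difference was -2.82 and -2.03, each time from 1 low mutant heart of 2, and without RORasg/sg 2 it was -1.38. WT 4, the dimmer WT array, read -0.61 for Per3, near WT 5 at -0.57.

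Cry1, the stronger repressor of the CRY pair, was measured on a brighter and a dimmer probe. The brighter probe A_52_P420500 read -1.27, -2.88, -3.17 and -5.59 in RORasg/sg hearts 1 to 4, against -1.87, -1.49, -1.29, -3.45 and -1.35 in WT hearts 1 to 5. RORasg/sg 2, 3 and 4 and WT 4 were the low hearts, and RORasg/sg 1 was the highest of all. In RORasg/sg 4 the probe was not well above background, and without that heart the log2 difference was -0.55. Over all hearts the log2 difference was -1.34 (SE 0.783, 95% interval -3.05 to 0.37, limma adjusted p = 0.406, exact permutation p = 0.254). The other probe, A_51_P302204, was well above background in 2 of 4 RORasg/sg and 3 of 5 WT hearts and differed by 0.16 (SE 0.651, limma adjusted p = 0.885), which turned to -0.056 with quantile normalization and -0.42 without scaling. The brighter probe differed by -0.40 within slide 1 and -2.01 within slide 2.

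Cry2, the paralogue of Cry1, separated RORasg/sg 1 from all other hearts on 1 of its 2 probes. Probe A_52_P248378 had a deposited signal of 813, 10.4, 13.3 and 14.5 in RORasg/sg hearts 1 to 4, against 131, 98.2, 225, 14.5 and 121 in WT hearts 1 to 5. RORasg/sg 1 was 4.78 times the mean of the 4 brighter WT hearts on the scaled values, and RORasg/sg 2, 3 and 4 lay with WT 4 at the low end, with RORasg/sg 2 not well above background. The log2 difference over all hearts was -0.71 (SE 1.01, 95% interval -2.92 to 1.49, limma adjusted p = 0.668, exact permutation p = 0.619). The second probe, A_51_P135542, was dim and read 0.11 higher in RORasg/sg hearts (SE 0.473, limma adjusted p = 0.896), a sign that turned with quantile normalization (-0.024), normexp (-0.029) and no scaling (-0.47). Within slides 1 and 2 the brighter probe differed by 0.19 and -1.34.

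**Figure D3:**
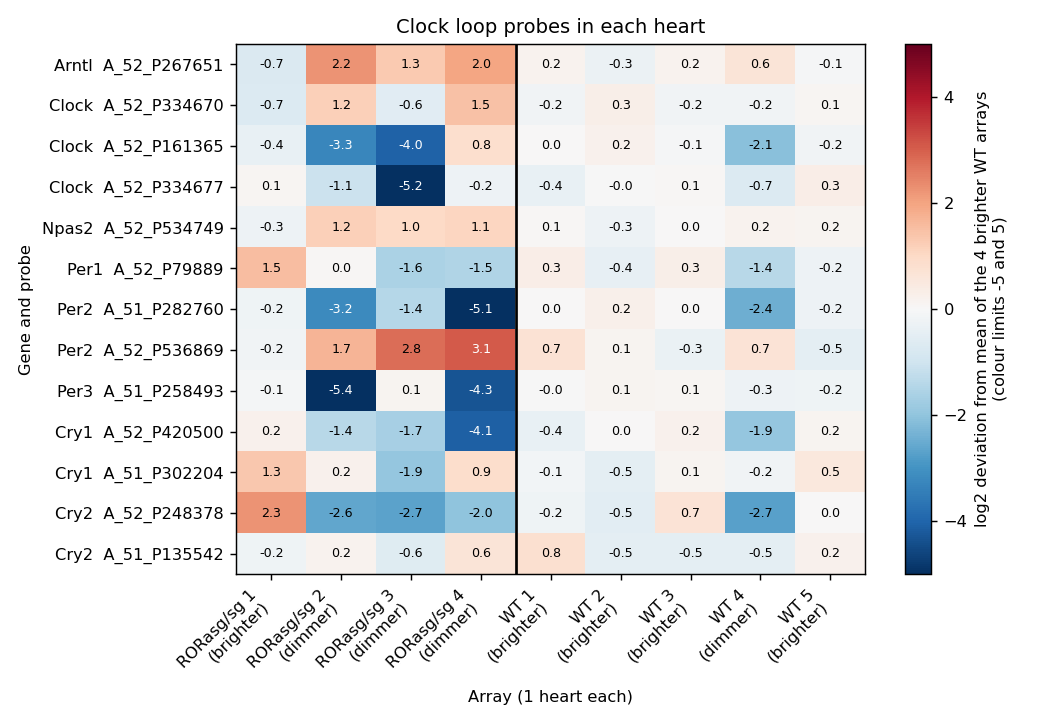
Log2 deviation of all 13 clock loop probes from their mean over the 4 brighter WT hearts, by heart, RORasg/sg left of WT, with the value printed in each cell and colours limited at -5 and 5. RORasg/sg 1 departs most on Cry2 (2.3) and Per1 (1.5), while RORasg/sg 2, 3 and 4 share high Arntl, Npas2 and Per2 A_52_P536869 values with low values of Per2 A_51_P282760, Cry1 A_52_P420500 and Cry2 A_52_P248378. WT 4, the dimmer WT array, is low on the same Per2, Cry1 and Cry2 probes (-2.43, -1.95 and -2.71). On Arntl, Npas2 and Per2 A_52_P536869 it stands at 0.64, 0.17 and 0.70.

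The spread among mutant hearts was the most regular feature of the clock loop. The SD was larger in RORasg/sg than in WT hearts for 12 of 13 member probes, with a median ratio of 2.61. Over all probes the ratio had a median of 2.07, and 85.2% of probes had the larger SD in RORasg/sg, so the wide spread was not limited to these genes. The limma fit over all hearts takes 1 variance for both groups, and its SEs, intervals and p rest on that assumption. The exception was Cry2 A_51_P135542, with 0.529 in RORasg/sg and 0.579 in WT hearts.

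The activating and repressing arms were set against each other within each array, a contrast that no scaling factor of an array can move. The mean deviation of Arntl, Clock and Npas2 minus that of Per1, Per2, Per3, Cry1 and Cry2, on the brightest probe of each gene and with the WT mean at 0, was -1.57, 2.82, 0.92 and 3.00 log2 units in RORasg/sg hearts 1 to 4. It was -0.34, -0.24, -0.45, 1.07 and -0.048 in WT hearts 1 to 5. RORasg/sg 2 and 4 lay above every WT heart, RORasg/sg 3 just below WT 4, and RORasg/sg 1 below every WT heart. Arntl against Per3 alone gave -0.78, 7.51, 0.9995 and 6.13 in RORasg/sg hearts 1 to 4, and between -0.63 and 0.71 in WT hearts. Per3 was not well above background in RORasg/sg 2, so 7.51 is only a bound there. The arm contrast also holds values not well above background, Per3 and Cry2 in RORasg/sg 2 and Cry1 in RORasg/sg 4. These contrasts were built from members chosen with earlier results known and carry no test. The probe taken for Per2 counts in them, and its other probe ran the opposite way.

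**Figure D4:**
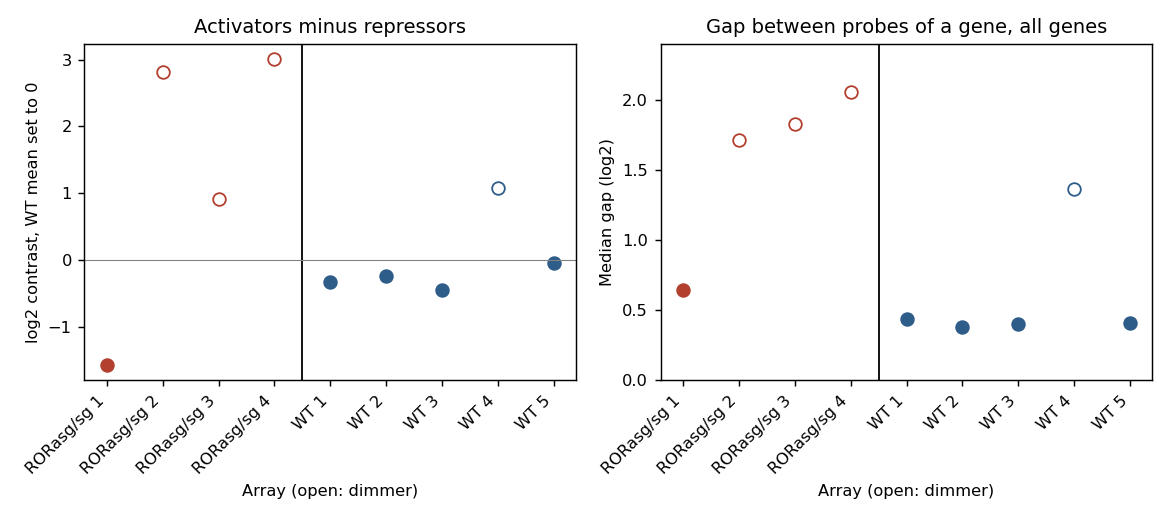
Left, the activator minus repressor contrast (log2, WT mean at 0) in each heart, and right, the median gap between probes of one gene over 6335 genes (log2), RORasg/sg hearts left of WT hearts. The open points, the 4 dimmer arrays, are high in both panels, at 0.92 to 3.00 on the left and 1.37 to 2.06 on the right.

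One mutant library decided the result for the group. Without RORasg/sg 1, 5 of 13 member probes passed the threshold in limma, against 35.3% of all probes. Arntl was then higher by 1.72 (SE 0.348, limma adjusted p = 0.0112), Npas2 by 1.05 (SE 0.269, adjusted p = 0.0212) and Per2 A_52_P536869 by 2.38 (SE 0.464, adjusted p = 0.00997). Per2 A_51_P282760 was lower, at -2.74 (SE 0.858, limma adjusted p = 0.0368), and so was Per3, at -3.16 (SE 1.04, limma adjusted p = 0.0425). The 3 mutant hearts left are all dimmer arrays and 4 of the 5 WT hearts are brighter ones, so WT 4 is the single heart there that parts genotype from brightness. The share of members called lay near the share of all probes. With array weights, which gave RORasg/sg 1 a weight of 0.106, 8 of 13 member probes passed in limma, 3 higher and 5 lower, against 49.8% of all probes.

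In the 5 brighter arrays, which hold RORasg/sg 1 as the lone mutant heart, the picture turned. In limma, which there assumes that the lone heart varies like the WT hearts, Cry2 A_52_P248378 was higher by 2.26 (SE 0.443, adjusted p = 0.0338), the single call among 13 member probes, against 3.78% of all probes. Per1 was higher by 1.53 (SE 0.386, limma adjusted p = 0.0604) and did not pass. Arntl differed by -0.70 (SE 0.465, limma adjusted p = 0.383), the bright Clock probe by -0.70, Npas2 by -0.26 and Per3 by -0.10, and the Per2 probes by -0.17 and -0.20. Of the 5 probes called without RORasg/sg 1, none passed in the brighter arrays (adjusted p from 0.383 to 0.844 in limma). Per2 A_51_P282760 and Per3 kept the negative sign and the other 3 turned negative. With log2 brightness as a covariate, 0 of 13 member probes and 0% of all probes passed in limma, and 0 of 13 members stood at an unadjusted p under 0.05, against 4.69% of all probes. Arntl then differed by 0.093 and Per3 by -0.80. Among the 4 dimmer arrays WT 4 is the lone WT heart, which limma assumes to vary like the mutant hearts. There Arntl differed by 1.21, Per2 A_52_P536869 by 1.82 and Per3 by -2.96, and 0 of 13 members and 0% of all probes passed in limma, with 0 members at an unadjusted p under 0.05, against 7.07% of all probes.

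**Figure D5:**
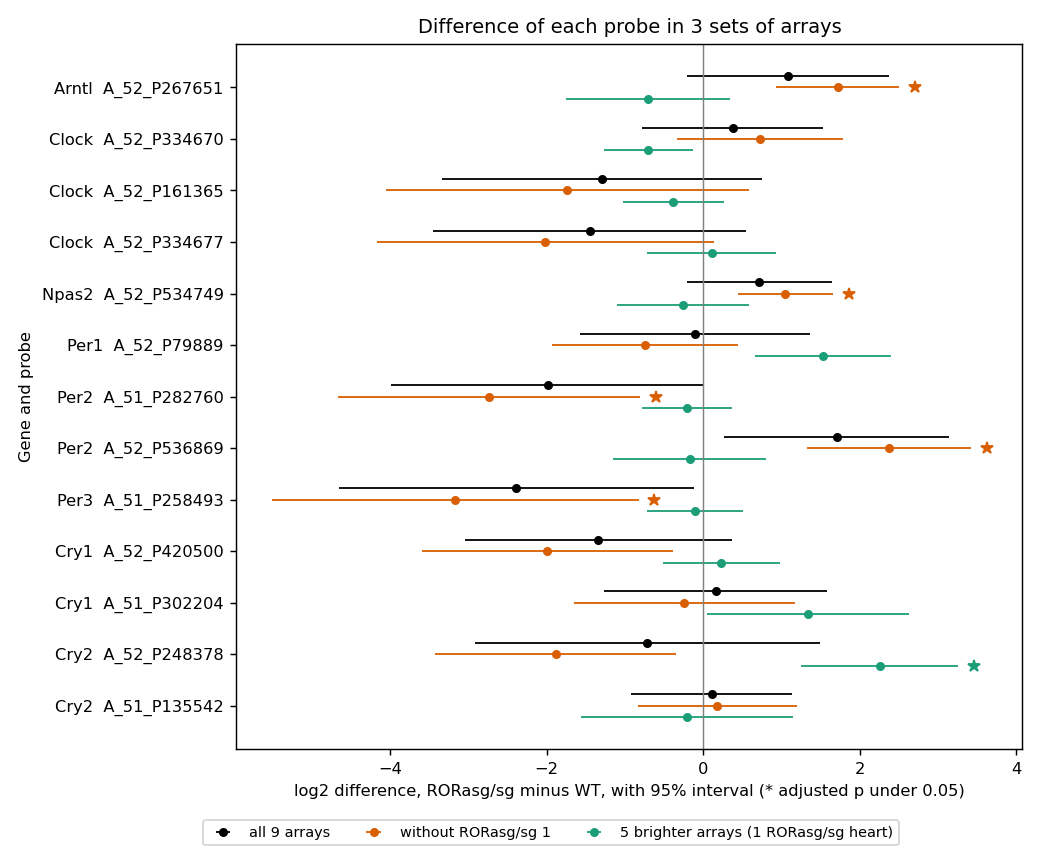
Log2 difference of each clock loop probe, RORasg/sg minus WT, with its 95% interval from limma, for all 9 arrays, without RORasg/sg 1 and for the 5 brighter arrays with RORasg/sg 1 as the lone mutant. Stars mark an adjusted p under 0.05: none over all arrays, 5 without RORasg/sg 1 and, in the brighter arrays, Cry2 A_52_P248378.

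The other genes of the clock, each taken on its brightest probe only, likewise held none that passed over all probes in limma. Some had further usable probes, with 3 in all for Nr1d1 and Tef and 4 for Ncor1. Those further probes are not reported here. Their counts at an unadjusted p under 0.05 stand against 12.8% of all probes. Of 5 ROR and REV-ERB receptor genes, 0 passed in either direction, and at an unadjusted p under 0.05 there were 3 lower and 0 higher genes, with a median difference of -1.61. Besides Rora they included Nr1d1, the gene of the Arntl repressor REV-ERBalpha, at -2.33 (SE 0.601, limma adjusted p = 0.315). Of 7 output factors, 0 passed, and at an unadjusted p under 0.05 there were 3 lower and 0 higher genes, with a median of -0.75. Dbp, whose protein binds D-boxes, read 3.65, 3.33, 1.23 and 2.39 in RORasg/sg hearts 1 to 4, against 3.77, 3.99, 4.33, 4.29 and 4.42 in WT hearts 1 to 5. Every RORasg/sg heart lay below every WT heart, which held for 1.83% of all probes and, among the listed clock genes, also for Rora and Ncor1. RORasg/sg 1, the brighter mutant array, lay close to WT 1. The log2 difference of Dbp was -1.51 (SE 0.486, limma adjusted p = 0.327). The related factors Hlf and Tef differed by -2.48 and -2.12, with overlapping groups.

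Of 12 kinases, phosphatases and ubiquitin ligases of the clock, 0 passed in limma, and at an unadjusted p under 0.05 there was 1 lower gene and no higher one, with a median of 0.24. Ppp5c, a phosphatase, differed by 1.86 and Gsk3b, a kinase, by -2.80. Of 13 partners and cofactors, 0 passed in limma, with 0 higher and 1 lower at that p and a median of -0.39. That one was Ncor1, the corepressor that REV-ERB receptors recruit, at -2.41 (SE 0.878, limma adjusted p = 0.347), followed by Sfpq at -1.05 and Ep300 at -1.49.

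The genes whose profile over the 9 hearts lay nearest to each member's were found among 17829 named genes. Nearness was the mean absolute gap after centring each brightest probe on its own mean. Arntl, which ranged over 2.95 log2 units, was matched most closely by Fam170a (gap 0.125) and Olfr1100 (0.134), Npas2 by Il1f6 (0.0492) and Calcoco2 (0.0765), and Clock by Trim30b (0.153) and Trub1 (0.159). Per1 was matched by Rrp1 (0.231) and Actr1b (0.243), Per2 by Sfn (0.148) and Hoxd3 (0.150), and Per3, which ranged over 5.58 log2 units, by Gmcl1 (0.261) and Mr1 (0.399). Cry1 was matched by Tgtp1 (0.182) and Polb (0.195), and Cry2 by E2f7 (0.302) and Cr1l (0.309). No member's nearest genes came from the clock lists above, but those lists are too small a part of the 17829 genes for this to carry weight. Some of the nearest probes were dim, with WT means of -4.57 for Fam170a, -5.54 for Olfr1100 and -5.11 for E2f7. The hearts share array brightness and slide, so the gaps are descriptions.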

How the data were processed

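Total RNA of 9 hearts was amplified with the NuGEN Ovation Pico WTA system from 70 ng and labelled with Cy3, per the labels' protocols. Per the file headers, Feature Extraction 12.0.0.7 with protocol GE1_1200_Jun14 scored arrays of design 014868, annotated on mm9. Its version 12 is also named by the submitters' processing notes. The deposited intensity is linear, with background already subtracted and no scaling from array to array, and the deposited value table holds the same intensities (largest relative difference 0 on each array; column medians 126, 55.4, 81.1 and 55.2 for RORasg/sg 1 to 4 and 139, 118, 110, 80.2 and 90.7 for WT 1 to 5), so its scale, centring and direction are known. Control and outlier-flagged spots were dropped, none was saturated, and repeated spots were averaged. Each array's 75th percentile was then subtracted from the log2 intensities. The filter kept every probe that was well above background on 4 or more arrays (36402 of 41174), among them all 13 member probes, 8 of which were so on all arrays. Names came from accessions in a GRCm38.p6 table, which matched 28223 probes.

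All kept probes entered 1 limma 3.58.1 fit (lmFit, eBayes with trend, R 4.3.3), RORasg/sg minus WT. Permutation tests used scipy 1.17.1 and figures matplotlib 3.10.9. The fit was tested on simulated data, drawn independently with 1 SD per probe for both groups. That test cannot show how the fit behaves with the unequal spread and brightness of these arrays. The members, lists, tests and brightness division were chosen with earlier results of these data known. The text names every member probe, Rora and the 3 genes of each clock list with the smallest p, and the 2 nearest profiles of each member, except that some list genes are not reported here. Slide 1 held RORasg/sg 1 and 2 and WT 1 and 2, slide 2 held RORasg/sg 3 and 4 and WT 3 and 4, and slide 3 held WT 5. Alternatives were other scalings, normexp (offset 50, on the median signal, followed by quantile normalization), other filters, 1 probe for each gene, slide or replicate number as a block, array weights, brightness, no trend, and leaving out each array. The 4 dimmer arrays alone were added after the files were seen. The labels do not say whether hearts were paired, and precision is limited by how many arrays there are.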

Additional observations from a re-analysis of the deposited data

Results flagged for a closer look

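In 5 of the 26 groups of member probe values, 1 heart lay farther from the rest of its group than Dixon's criterion at the 95% level allows, where chance gives about 5% of independent groups. The 26 groups share the same arrays, and the share over all probes was not computed. The count is therefore no result about the clock loop. In WT hearts it was WT 4 each time, at -3.01 on Clock A_52_P161365 (nearest WT heart -1.08), -1.70 on Per2 A_51_P282760 (nearest 0.48) and -3.45 on Cry1 A_52_P420500 (nearest -1.87). In RORasg/sg hearts it was RORasg/sg 1, at -3.17 on Npas2 A_52_P534749 (nearest mutant heart -1.92) and at 0.098 on Cry2 A_52_P248378 (nearest -4.16). WT 4 is the dimmer WT array and RORasg/sg 1 the brighter mutant array. The part of brightness in these values was not tested.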

How the results depend on the processing

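There were 25 alternatives. Where each group kept more than 1 heart, the count of clock loop probes past the threshold stayed at 0 except with array weights and without RORasg/sg 1. With array weights 8 of 13 passed in limma (49.8% of all probes, with the weight of RORasg/sg 1 at 0.106). Without RORasg/sg 1 the count was 5 (35.3% of all probes), and removing any other single array left it at 0. The members' median of 0.14 became -0.44 without scaling, -0.19 within slide 2, -0.51 with array weights and 0.62 in the 4 dimmer arrays. It ran from -0.077 to 0.47 with any single array removed. The cause of these shifts was not tested. Over probes well above background on all arrays the median was 0.72. There the brightest probes of Per3, Cry1 and Cry2 dropped out, and the differences of the other members were unchanged. With the replicate number as a block the count was 0 and the median 0.16. Same-numbered hearts correlated by 0.075, -0.010, -0.34 and 0.40 in their deviations from the group means, so the numbers are not taken to pair the hearts.

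Signs turned in the 5 brighter arrays for Npas2 (-0.26), Per2 A_52_P536869 (-0.17), Arntl (-0.70), Clock A_52_P334670 (-0.70) and A_52_P334677 (0.11), Per1 (1.53), Cry1 A_52_P420500 (0.23) and Cry2 A_52_P248378 (2.26) and A_51_P135542 (-0.21). With brightness as a covariate they turned for Clock A_52_P334670 (-0.27), Per1 (0.87) and Cry2 A_52_P248378 (1.10) and A_51_P135542 (-0.025). In the dimmer arrays they turned for Per1 (0.37), Cry1 A_51_P302204 (-0.0995) and Cry2 A_52_P248378 (0.28). Without scaling they turned for Clock A_52_P334670 (-0.20), Cry1 A_51_P302204 (-0.42) and Cry2 A_51_P135542 (-0.47), and with quantile normalization for the same Cry1 (-0.056) and Cry2 (-0.024) probes. Within slide 1 they turned for Per1 (0.81), Cry2 A_52_P248378 (0.19) and A_51_P135542 (-0.16), and within slide 2 for Cry1 A_51_P302204 (-0.50). With array weights they turned for Cry1 A_51_P302204 (-0.80) and Cry2 A_51_P135542 (-0.098), and with normexp for that Cry2 probe (-0.029). With single arrays left out, Per1 ran from -0.74 to 0.30, Cry1 A_51_P302204 from -0.24 to 0.85 and Cry2 A_51_P135542 from -0.10 to 0.33. Per2 A_51_P282760, Per3 and Clock A_52_P161365 stayed negative under every alternative that gave them a value. Signals at background in 1 mutant heart each limit Clock A_52_P334677, Per3, Cry1 A_52_P420500 and Cry2 A_52_P248378, and Cry1 A_51_P302204 was well above background in 2 of 4 RORasg/sg and 3 of 5 WT hearts.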

Other observations

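Markers of other cells are given as the summed signal of each list in units of the array's 75th percentile. Fibroblast markers summed to 45.1 to 92.9 in RORasg/sg and 42.3 to 51.9 in WT hearts, and endothelial markers to 14.2 to 51.3 in RORasg/sg and 13.1 to 30.0 in WT hearts. Smooth muscle markers lay at 43.1 to 85.4 in RORasg/sg and 39.4 to 99.0 in WT hearts, and macrophage markers at 7.26 to 17.3 in RORasg/sg and 5.80 to 14.0 in WT hearts. Atrial cardiomyocyte markers lay at 0.45 to 1.88 in RORasg/sg and 0.28 to 0.63 in WT hearts, adipocyte markers at 0.31 to 1.26 in RORasg/sg and 0.30 to 1.15 in WT hearts, and liver markers at 0.097 to 0.38 in RORasg/sg and 0.17 to 3.16 in WT hearts. Erythroid markers, 2 of 3 of which were on the array, lay at 0.66 to 22.3 in RORasg/sg and 5.91 to 11.3 in WT hearts. The ranges of the groups overlapped for every list named here, and their part in the clock gene values was not tested.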
